A study of Mus musculus with 7 samples.

Results

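The genes Prox1, Dsp, Plk5, Lct, Npnt, Glis3, Fam163b and Calb1 are marker genes of the granule cells of the dentate gyrus. These 8 genes of 38924 gene records were chosen by their names, with their higher level in the dentate gyrus already known from the same libraries. The difference between dentate gyrus and Ammon's horn is therefore given for them as a description and is not tested. The comparison of knockout with wild-type Ammon's horn is tested in the fit across all genes; it uses the same 3 wild-type libraries, and the choice was made with earlier results known. The data are RNA-seq of polyadenylated RNA from the hippocampus of adult mice, in 7 libraries. Wild-type Ammon's horn (the CA fields) gave 3 libraries, Ammon's horn of Khdrbs3 knockout mice another 3, and wild-type dentate gyrus 1. For wild-type and knockout libraries alike, the labels give a Tstar null allele crossed back to C57Bl6 over 8 generations as the strain background, and no special treatment. Tstar is another name for Khdrbs3, which encodes an RNA-binding regulator of alternative splicing. The knockout was sequenced in Ammon's horn, so its effect on the dentate gyrus is not measured here. The labels do not state whether libraries came from separate animals, and p-values measure only the spread between these libraries.

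Granule cells are the principal excitatory neurons of the dentate gyrus. They receive input from the entorhinal cortex and send mossy fibres to the CA3 field of Ammon's horn, and they continue to be born in the adult. The homeodomain transcription factor PROX1 is needed for granule cells to acquire and keep their identity, and in the hippocampus it is also made by some interneurons. The calcium buffer calbindin (Calb1) is abundant in granule cells but also in CA1 pyramidal cells and interneurons.

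Gene counts summed to between 50230733 and 67692326 per library, and exon-bin counts to between 29698245 and 39904606. Levels are CPM, that is counts scaled to a common library total with TMM factors, from counts over the whole gene with introns included, unless another scale is named. In the check of the targeted gene, the second exon bin of Khdrbs3 held 6, 9 and 7 reads in the knockout libraries, against 808, 1103 and 964 in the wild-type Ammon's horn libraries and 506 in the dentate gyrus library. Reads over all exon bins of Khdrbs3 were not lost: the knockout libraries held 11028, 11884 and 9562, the wild-type ones 7319, 9624 and 8259. The summed level of 7 CA1 pyramidal markers was 115 CPM in the dentate gyrus library, against 799 to 833 for the wild-type and 744 to 793 for the knockout libraries of Ammon's horn. The summed level of 9 CA2 and CA3 markers was 427 CPM in the dentate gyrus library and 427 to 449 CPM for wild-type Ammon's horn. The summed level of 7 choroid plexus markers was 150, 38.4 and 20.9 CPM in the wild-type libraries, 787, 18.6 and 730 in the knockout libraries, and 262 in the library of dentate gyrus.

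The promoters of 7 of the 8 genes were found in RefSeq on GRCm38.p6, as 9 windows of 300 bases from 250 before to 50 after a transcription start; Calb1 had no entry. They are shown for the identity factor Prox1, for Fam163b and for Lct, which is taken up again with its first exon. Searches on both strands used CAGATG (the E-box form bound by NeuroD factors), CTTTGA (the core of TCF/LEF sites) and TATAAA (the TATA box), which overlapped nowhere in these windows. Capitals mark the matches, and all 3 sequences are on the gene's own strand.
Prox1, first start (chr1:190170778-190171077, minus strand): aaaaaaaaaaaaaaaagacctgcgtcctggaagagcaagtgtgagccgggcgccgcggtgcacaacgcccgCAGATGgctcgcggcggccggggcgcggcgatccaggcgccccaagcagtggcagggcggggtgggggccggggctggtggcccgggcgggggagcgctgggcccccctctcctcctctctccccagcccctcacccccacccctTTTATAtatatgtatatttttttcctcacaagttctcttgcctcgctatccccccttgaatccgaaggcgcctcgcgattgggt
Fam163b (chr2:27142428-27142727, minus strand): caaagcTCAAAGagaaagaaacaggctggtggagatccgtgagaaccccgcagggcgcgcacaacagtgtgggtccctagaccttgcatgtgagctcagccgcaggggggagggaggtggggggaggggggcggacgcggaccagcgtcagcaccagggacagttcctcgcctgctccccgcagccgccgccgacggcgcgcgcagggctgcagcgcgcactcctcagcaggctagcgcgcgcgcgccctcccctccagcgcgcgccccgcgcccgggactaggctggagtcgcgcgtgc
Lct (chr1:128328269-128328568, minus strand): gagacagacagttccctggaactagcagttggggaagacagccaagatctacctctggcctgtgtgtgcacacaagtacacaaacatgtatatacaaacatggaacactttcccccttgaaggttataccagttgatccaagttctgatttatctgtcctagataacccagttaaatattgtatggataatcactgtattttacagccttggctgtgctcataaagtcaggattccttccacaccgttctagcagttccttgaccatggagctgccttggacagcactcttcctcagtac
The Prox1 window held CAGATG at position -179 and TATAAA, on the other strand, at position -34 from the start. The Fam163b window held CTTTGA, on the other strand, at position -244. The Lct window and the other 6 windows held none of the 3 words, which says only that those letters are not there. Among all 32851 promoter windows, 17.2% held CAGATG, 5257 held CTTTGA and 13.6% held TATAAA. The windows differed widely in base composition: GC content was 44.7% with 1 CG dinucleotide for Lct, 64.3% with 25 for Prox1 and 72.0% with 34 for Fam163b, against a median GC content of 52.7% over all windows.

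All 8 genes had their highest level in the dentate gyrus library. That level was between 1.58 times (Calb1) and 9.46 times (Dsp) the highest Ammon's horn library. Over the mean of wild-type Ammon's horn, the ratio ran from 1.74 to 11.4, with a median of 7.37. In the fit across all genes, 7 of the 8 were at least 2-fold higher with an adjusted p under 0.05, as were 2.22% of the 24486 genes tested. This count follows from how the genes were chosen, and nothing is read from it. Of the genes inside the 2-fold limit, Fam163b was the lowest, with a log2 fold change of 1.99 (3.96 times), so none lay close to the limit. The gene outside it was Calb1, with 0.80. In the dissected tissue, fewer granule cells and less RNA per granule cell cannot be told apart.

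**Figure D1:**
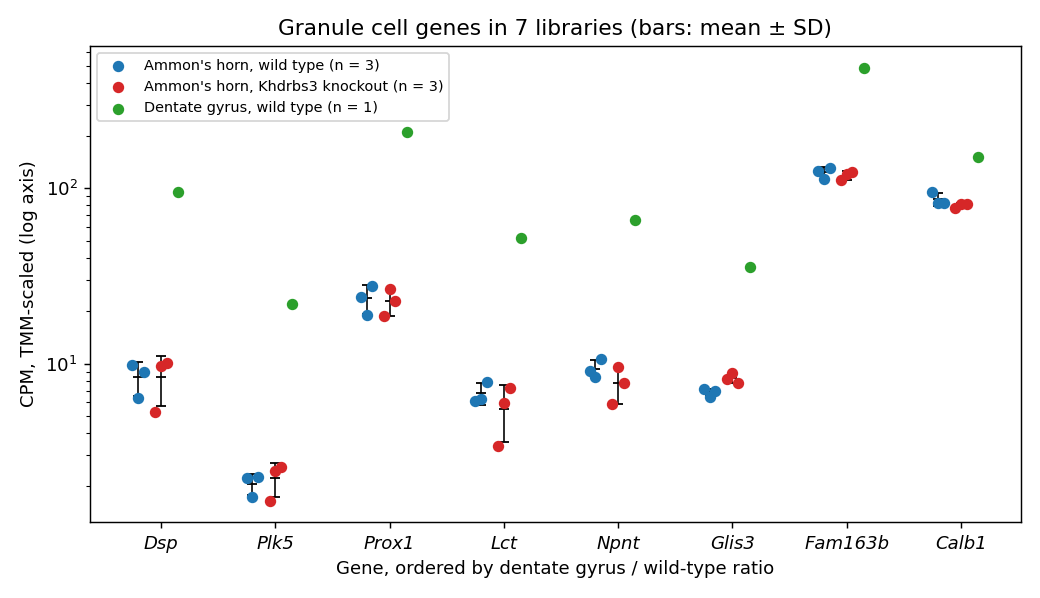
Level of the 8 genes in each of the 7 libraries, in TMM-scaled CPM on a log axis; points are libraries, and black bars are the mean ± SD of the 3 wild-type and 3 knockout Ammon's horn libraries. The dentate gyrus point lies above all 6 Ammon's horn points for each gene, with the widest gap for Dsp (95.7 CPM against at most 10.1) and the narrowest for Calb1 (151 against at most 95.5).

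Of the transcription factors, Prox1 (ENSMUSG00000010175.7, mm10 chromosome 1, 190118038 to 190170680) was at 24.1, 18.9 and 27.9 CPM in wild-type Ammon's horn, 18.7, 26.5 and 22.6 CPM in the knockout, and 210 CPM in the dentate gyrus. The 2 Ammon's horn groups overlapped, and the dentate gyrus level was 8.89 times the wild-type mean. An antisense gene, Gm17566, overlaps the 5' end of Prox1. Whether the counting used strand is not given in the sources used here, so reads of the 2 genes may not be fully separated. Glis3, a zinc-finger transcription factor of the Krüppel-like kind (ENSMUSG00000052942.7, chromosome 19, 28258851 to 28680077), was at 7.12, 6.45 and 6.96 CPM in wild type, 8.16, 8.80 and 7.79 CPM in the knockout, and 35.3 CPM in the dentate gyrus. Here the 3 knockout libraries lay above the 3 wild-type ones. The Glis3 symbol has a second, shorter record inside the first (ENSMUSG00000091294.1), which held 77 to 93 reads in the Ammon's horn libraries and 451 in the dentate gyrus.

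The cell adhesion and matrix genes were Dsp and Npnt. Dsp encodes desmoplakin, which ties desmosomes to intermediate filaments (ENSMUSG00000054889.3, chromosome 13, 38151328 to 38198577). It was at 9.78, 6.33 and 9.01 CPM in wild type, 5.31, 9.62 and 10.1 CPM in the knockout, and 95.7 CPM in the dentate gyrus. This ratio of 11.4 was the largest of the 8. Npnt encodes nephronectin, a matrix ligand of the integrin of alpha 8 and beta 1 subunits (ENSMUSG00000040998.12, chromosome 3, 132881745 to 132950291). It was at 9.01, 8.42 and 10.6 CPM in wild type, 5.86, 9.52 and 7.75 CPM in the knockout, and 65.6 CPM in the dentate gyrus, 7.03 times the wild-type mean. In both genes the lowest Ammon's horn library was knockout replicate 1 and the groups overlapped.

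Lct encodes lactase, known as the milk sugar hydrolase of the intestinal brush border (ENSMUSG00000026354.8, chromosome 1, 128284756 to 128328318). Its level was 6.11, 6.29 and 7.85 CPM in wild type, 3.39, 5.94 and 7.26 CPM in the knockout, and 52.1 CPM in the dentate gyrus, a ratio of 7.72. Plk5, a member of the polo-like kinase family (ENSMUSG00000035486.8, chromosome 10, 80356459 to 80365489), had the fewest reads, with 98 to 152 counts per Ammon's horn library and 1363 in the dentate gyrus. Its level was 2.22, 1.72 and 2.24 CPM in wild type, 1.65, 2.44 and 2.56 CPM in the knockout, and 21.9 CPM in the dentate gyrus, a ratio of 10.6.

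Fam163b (ENSMUSG00000009216.7, chromosome 2, 27110380 to 27142491) and Calb1 (ENSMUSG00000028222.2, chromosome 4, 15881264 to 15908064) had the smallest ratios and, in Ammon's horn, the most reads. Fam163b was at 126, 112 and 131 CPM in wild type, 111, 121 and 124 CPM in the knockout, and 489 CPM in the dentate gyrus, a ratio of 3.96. Calb1 was at 95.5, 82.0 and 82.7 CPM in wild type, 77.5, 81.0 and 81.5 CPM in the knockout, and 151 CPM in the dentate gyrus. For Calb1 the 3 knockout libraries lay below the 3 wild-type ones. Wild-type Ammon's horn thus held 57.4% of the dentate gyrus level of Calb1 and 25.2% of that of Fam163b, against 8.74% for Dsp, 9.40% for Plk5, 11.2% for Prox1, 12.95% for Lct, 14.2% for Npnt and 19.4% for Glis3.

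Counts over the whole gene and counts over exons gave different ratios for some genes. From summed exon bins, Glis3 was 8.10 times higher in the dentate gyrus than in wild-type Ammon's horn, against 5.16 from the whole gene. The median over the 8 genes was 8.58. For Glis3 the exon bins join both of its records, whereas the whole-gene count is that of the longer record alone. That count was 3.35 ± 0.449 (SD, n = 3) times the joined exon-bin sum for wild-type Ammon's horn and 2.172 times for the dentate gyrus. For Prox1 the same quotient was 1.95 ± 0.0389 (SD, n = 3) and 1.89. In wild-type Ammon's horn the quotient was below 1 for Plk5 (0.858) and for Calb1 (0.975), so the 2 kinds of count did not treat every read alike. In the dentate gyrus it was 0.921 for Plk5 and 1.08 for Calb1.

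Levels were compared between genes only per length, as exon-bin CPM (exon reads scaled to the library's exon-bin total) per kilobase of exon, for the 7 genes whose bins could be placed. In the dentate gyrus the order was Fam163b (58.7), Calb1 (52.6), Prox1 (24.2), Npnt (17.0), Plk5 (16.2), Dsp (12.1) and Lct (11.1). With 1 library, neighbours in this order have no spread to be set against. On the same scale in wild-type Ammon's horn Calb1 came first, at 31.0 ± 2.82 (SD, n = 3), and Fam163b second, at 14.7 ± 1.03. Prox1 (2.45 ± 0.451) and Npnt (2.21 ± 0.234) overlapped between libraries, as did Plk5 (1.52 ± 0.226) with Lct (1.17 ± 0.147), and Lct with Dsp (0.943 ± 0.216). On this scale Calb1 and Fam163b changed places between the regions, and their libraries did not overlap in Ammon's horn. The length counts all annotated bins, however thinly read. For Calb1 it was 4846 bp, of which the last bin took 3415 bp. That bin had 806 reads per kilobase in the dentate gyrus, against 2745 in bin 2 and 13625 in bin 13. The place of Calb1 in the order therefore holds only for this length.

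Other genes linked to granule cells were taken from a list of 16. In the dentate gyrus 11 of them were called at least 2-fold higher and none lower, and the list's median log2 fold change was 1.73, against -0.01 over all genes tested. C1ql2, a secreted synaptic organiser, had a log2 fold change of 3.18, the guanine nucleotide exchange factor Dock10 had 2.12, the SNARE-binding protein gene Stxbp6 2.10 and the transcription factor gene Rfx3 2.06. All 7 CA1 markers were called lower, led by Nov (-4.09), Fibcd1 (-3.46), Pou3f1 (-3.20) and Mpped1 (-2.84), and none of the 9 CA2 and CA3 markers was called. The other 5 genes of the granule cell list did not pass the 2-fold rule, and Pdzd2, named after its values were seen, had a log2 fold change of -0.43. These lists were also drawn up with earlier results known, so they are no independent check of the labels.

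**Figure D2:**
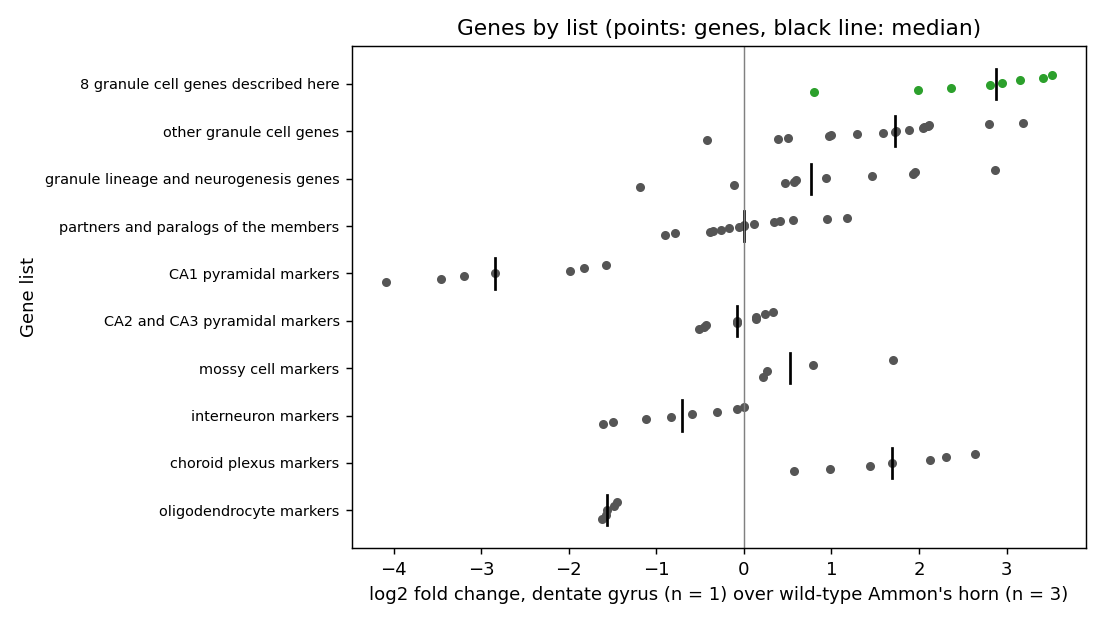
Log2 fold change of the dentate gyrus library over wild-type Ammon's horn (x axis) for each gene of each list (y axis); points are genes, and black lines are list medians. The 8 granule cell genes (green) lie between 0.80 and 3.52 and were chosen for being high there, whereas the 7 CA1 markers all lie below 0 and the CA2 and CA3 markers lie around 0.

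The list of 10 lineage and neurogenesis genes had 3 called higher in the dentate gyrus and none lower, with a median of 0.76. They were Calb2 (calretinin, of immature granule cells and also mossy cells and interneurons), with a log2 fold change of 2.87, the neuronal differentiation factor gene Neurod1, with 1.46, and Igfbpl1, with 1.94, which is named outside the rule after its values were seen because its level was low. Of 4 mossy cell markers 1 was called higher, Csf2rb2, with 1.71 (also named after its values were seen). Of 8 interneuron markers 3 were called lower: Pvalb (-1.61), Vip (-1.50) and Sst (-1.12). All 5 oligodendrocyte markers were called lower, with a median of -1.56, and none of the 7 choroid plexus markers was called, with a median of 1.69.

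The list of 15 partners and paralogs of the 8 genes had 1 gene called higher in the dentate gyrus and none lower, with a median of -0.0019. The gene called was Itga8, the alpha 8 subunit of the nephronectin receptor. It was at 9.78, 9.33 and 9.88 CPM in wild-type Ammon's horn and 21.8 CPM in the dentate gyrus, a log2 fold change of 1.17. Its partner subunit Itgb1 was at 50.5 to 53.5 CPM and 52.0 CPM. The desmosomal partners of Dsp, named as a group after their values were seen, did not pass the 2-fold rule. Plakoglobin (Jup) had a log2 fold change of -0.26, the plakophilins Pkp2 and Pkp4 had 0.12 and -0.35, desmoglein 2 (Dsg2) had 0.94, and desmocollin 2 (Dsc2), at no more than 0.514 CPM in any of the 7 libraries, had -0.39.

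By the likeness of their profile over the 7 libraries, 5 genes outside the 8 stood closest to the mean profile of the 8, among 13223 genes with a mean of at least 5 CPM. The measure was the root mean square difference of centred log2 CPM. It was 0.147 for Dgkh, 0.160 for Il1r1, 0.175 for Sema5a, 0.202 for Dock10 and 0.204 for the noncoding Gm16933. Their dentate gyrus levels were 5.53, 4.98, 5.28, 4.34 and 4.54 times the wild-type mean. The same measure, with each gene part of the mean it was set against, was 0.174 for Npnt, the closest of the 8, and 0.648 for Calb1, the farthest. This is a description over 7 libraries of which 1 is far from the others, and it is given with no test.

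Within Ammon's horn the 8 genes varied between libraries of the same genotype. Knockout replicate 1 was the lowest of the 6 libraries for 7 of the 8 genes, all but Glis3. Its deviation from the gene's mean over the 6 libraries ranged from -0.81 (Lct) to 0.12 (Glis3) on the log2 scale, with a median of -0.32. Wild-type replicate 2 lay below the mean for 6 genes, with a median of -0.16, and wild-type replicate 3 was the highest library for 4 genes, with a median of 0.13. The highest Ammon's horn library was 2.32 times the lowest for Lct, 1.91 times for Dsp and 1.80 times for Npnt, but 1.18 times for Fam163b and 1.23 times for Calb1. Knockout replicates 1 and 3 were the libraries with 787 and 730 CPM of choroid plexus markers, and in replicate 3 the 8 genes had a median deviation of 0.04. The part of tissue composition or dissection in these deviations was not tested.

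**Figure D3:**
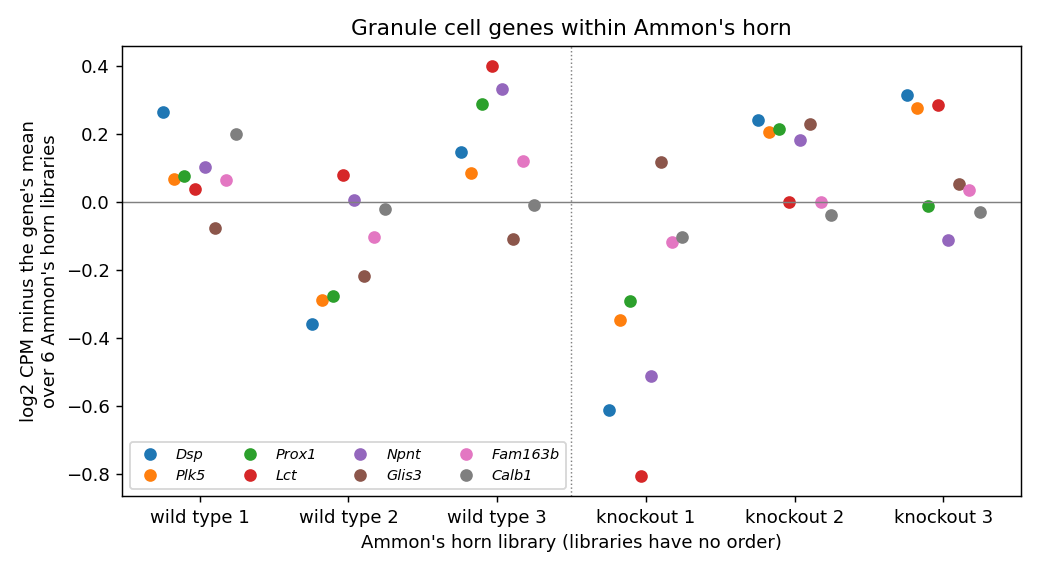
Log2 CPM of each gene minus its own mean over the 6 Ammon's horn libraries (y axis), by library (x axis); points are genes, offset sideways for legibility, and the dotted line separates the genotypes. Knockout replicate 1 holds the lowest point of 7 genes, down to -0.81 for Lct, and Glis3 is below 0 in all 3 wild-type libraries and above 0 in all 3 knockout ones.

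The comparison of knockout with wild-type Ammon's horn asked whether the Khdrbs3 knockout changes the level of these genes. None of the 8 was called by edgeR's quasi-likelihood test at an adjusted p under 0.05, against 17 of 22830 genes tested (0.0745%), and none was called with DESeq2 or limma-voom. At an unadjusted p under 0.05 there was 1 of the 8, Glis3, against 8.38% of all genes. The median log2 fold change of the 8 was -0.06 with 2 above 0, against 0.0015 over all genes with 50.5% above 0. The 3 knockout and 3 wild-type libraries did not overlap for 2 of the 8, Glis3 and Calb1, and 13.2% of all genes had such a separation. With so few genes, these shares do not set the 8 apart from the background.

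Glis3 had the highest estimate, 0.27 on the log2 scale (SE 0.0956, edgeR adjusted p = 0.503), or 1.21-fold with a 95% interval of 1.04 to 1.40. From summed exon bins, which join both Glis3 records, the log2 fold change was 0.43 (edgeR adjusted p = 0.540). The estimate lay between 0.22 and 0.31 when each library was left out in turn. Calb1 went the other way, at -0.12 (SE 0.0648, edgeR adjusted p = 0.675), or 0.923-fold with an interval of 0.836 to 1.02. Without wild-type replicate 1 it was -0.04.

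The estimates for Lct, Npnt and Dsp moved with single libraries in both directions. Lct was at -0.29 (SE 0.226, edgeR adjusted p = 0.774), with an interval of 0.578-fold to 1.16-fold, but at -0.03 without knockout replicate 1 and at -0.53 without knockout replicate 3. Npnt was at -0.27 (SE 0.160, edgeR adjusted p = 0.686), with an interval of 0.647-fold to 1.06-fold, but at -0.11 without knockout replicate 1 and at -0.46 without knockout replicate 2. Dsp was at -0.0014 (SE 0.228, edgeR adjusted p = 0.999), with an interval of 0.705-fold to 1.42-fold, but at 0.24 without knockout replicate 1 and at -0.17 without wild-type replicate 2.

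The identity gene Prox1 was at -0.06 (SE 0.149, edgeR adjusted p = 0.943), an interval of 0.763-fold to 1.20-fold. Plk5 was at 0.11 (SE 0.199, edgeR adjusted p = 0.919), an interval of 0.795-fold to 1.46-fold. Fam163b had one of the narrowest intervals, 0.865-fold to 1.07-fold, at -0.06 (SE 0.0692, edgeR adjusted p = 0.864). A p that misses the threshold does not show equal levels, and the intervals give the sizes of change that these libraries allow.

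**Figure D4:**
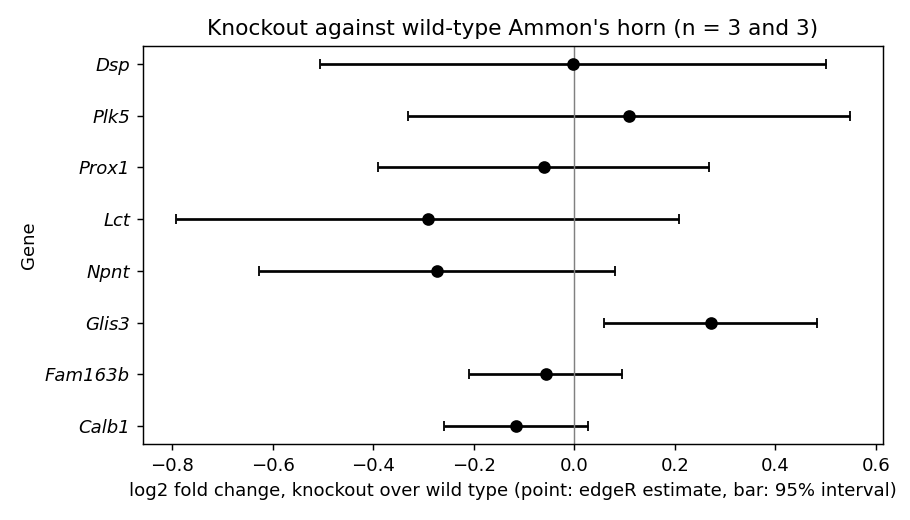
Log2 fold change of knockout over wild-type Ammon's horn (x axis) for each of the 8 genes (y axis); points are edgeR estimates from 3 and 3 libraries and bars are their 95% intervals, unadjusted for the number of genes. The interval excludes 0 for Glis3 alone, whose adjusted p of 0.503 is above the threshold, and is widest for Dsp and Lct.

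The related lists had no called gene in the knockout. None of the 16 other granule cell genes was called, with a median of -0.01 and 7 above 0, none of the 9 lineage genes that could be tested (median -0.04), and none of the 15 partners and paralogs (median 0.02). Those with an unadjusted p under 0.05 were Trpc6, Pdzd2, Dcx and Itgb1, which are named after their values were seen. Of the marker lists of other cell types, 1 gene was called: the oligodendrocyte gene Cldn11, a tight junction protein of myelin, fell by 0.34 on the log2 scale (edgeR adjusted p = 0.0457). The 7 choroid plexus markers had a median of 2.04 with all 7 above 0 and none called.

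Exon use within the 8 genes was then examined by exon bin, a bin being a stretch of exon that does not overlap any other bin. The 8 genes had 146 bins, of which 11 had no read in any library and 78 had at least 100 reads over the 7 libraries. Of the 57 bins that could be tested in the knockout, none was called by edgeR's diffSpliceDGE, none by limma's diffSplice, and none had an unadjusted p under 0.05; the lowest was 0.0615, in Lct. Over all genes 5 of 166154 bins were called (0.00301%), 4 used more and 1 used less in knockout libraries, and the share with an unadjusted p under 0.05 was 1.72%. Dsp had 4 testable bins of 28 and Glis3 2 of 26, so little can be said of their exons in the knockout at this depth.

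The bin with the largest difference in share between dentate gyrus and wild-type Ammon's horn was taken for each gene. The share is the bin's percentage of the gene's exon-bin reads, and the intervals are exact Clopper-Pearson intervals of the single dentate gyrus library, which cover counting error only. These intervals take each bin count as a separate read, which was not checked, so they may be too narrow. In Calb1 the last bin (chromosome 4, 15904650 to 15908064, the final exon) held 28.6%, 26.9% and 27.2% of reads in the wild-type libraries, 31.4%, 29.2% and 30.7% in the knockout libraries, and 31.6% in the dentate gyrus library (95% interval 30.6 to 32.6%). The 3 knockout libraries lay above the 3 wild-type ones, but the change in use did not pass the test (log2 0.14, SE 0.0863, edgeR diffSpliceDGE adjusted p = 0.99999).

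In Prox1, the most 3' bin held 56.4% ± 2.38 (SD, n = 3) in wild type and 54.7% (interval 53.6 to 55.9%) in the dentate gyrus. In Fam163b, the bin of the last exon held 81.1% ± 1.24 and 79.8% (78.8 to 80.8%). In Npnt, the most 3' bin held 19.3% ± 2.80 and 17.6% (16.3 to 19.1%). For Dsp the last bin held 43.3% ± 1.72 and 38.8% (37.3 to 40.3%). For Glis3, bin 4 held 7.14%, 6.72% and 3.497% in the wild-type libraries, from 7, 9 and 5 reads. It held 9.58% (7.84 to 11.6%) in the dentate gyrus, above all 3. The knockout libraries held 5.16%, 7.56% and 10.5%, the last above the dentate gyrus. For Plk5, the last bin (bin 23) held 10.7%, 8.89% and 6.63%, from 14, 12 and 11 reads, and 11.4% (9.84 to 13.2%). Its knockout shares were 7.63%, 8.84% and 13.5%, the last again above the dentate gyrus. With 1 dentate gyrus library and so few Ammon's horn reads, the differences between the regions were not tested.

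Npnt has 2 alternative exons that few of its annotated transcripts hold, and both were close to unread in the dentate gyrus. Bin 15 (chromosome 3, 132914373 to 132914465, 93 bp, in 2 of 7 transcripts) had 2 reads there, against 70 in bin 16, which has the same length. Bin 17 (132931582 to 132931632, 51 bp, in 2 of 7 transcripts) had 1 read, against 48 in the 101 bp of bin 18. The 6 Ammon's horn libraries had 0 to 2 reads in each of the 2 bins. They had only 3 to 11 in bin 16 and 2 to 10 in bin 18. Of the gene's exon-bin reads, bin 15 held 0.0686% in the dentate gyrus. Its shares were 0.593%, 0.25% and 0.222% in the wild-type libraries and 0.448%, 0% and 0.364% in the knockout ones. All but knockout replicate 2 thus lay above the dentate gyrus. For bin 17, only wild-type replicate 1 had reads among these 6 libraries. With so few reads in the 2 bins, the regions were not tested against each other. These bins were picked out after their values were seen.

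Dsp makes a long and a short form of desmoplakin by using an inner or an early splice site in its next-to-last exon. In the annotation, transcript Dsp-202 leaves out 1797 bp (chromosome 13, 38191859 to 38193655), or 599 codons of the rod that the long form Dsp-201 keeps. The sequences around the shared early site show the choice; each has the last 24 bases before it in lower case and the next 24 bases of the transcript in capitals, on mm10 and the plus strand.
Dsp-201, reading on through the exon: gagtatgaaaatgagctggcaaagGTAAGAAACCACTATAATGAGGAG
Dsp-202, joined to the last exon: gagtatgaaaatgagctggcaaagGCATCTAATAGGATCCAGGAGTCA
Bins do not count spliced junctions, so the forms were followed through read density. Density can also differ with bin length. In the dentate gyrus the 16 bp bin 2 of Npnt had 3687.5 reads per kilobase, and the adjoining 1731 bp bin 3 had 497. The 3 Dsp bins compared here have 498, 1797 and 3882 bp, so the ratios are not the share of the long form. In the dentate gyrus the stretch held only by the long form had 0.388 times the reads per kilobase of the part of the exon before it, from 409 and 292 reads. Among Ammon's horn libraries the ratio averaged 0.408 ± 0.128 (SD, n = 3) over the wild-type ones and 0.482 ± 0.0359 (SD, n = 3) over the knockout ones. Against the last exon instead, the ratios were 0.572, 0.469 ± 0.0673 and 0.558 ± 0.153. The dentate gyrus value was within 1 SD of the wild-type mean by the first measure and above all 3 wild-type libraries by the second, and neither was tested.

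Prox1 has 3 bins at its 5' end, each in 1 or 2 of its 3 annotated transcripts. Bins 8 and 9 adjoin, and the promoter window printed above lies wholly upstream of bin 9. In the dentate gyrus the 3 bins held 18 (bin 7), 18 (bin 8) and 55 reads (bin 9, the outermost), or 75.9, 75.0 and 133 reads per kilobase. The first long coding bin, bin 6, had 751 reads per kilobase. All 3 were also read in Ammon's horn, with at most 8 reads per library and bin.

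The first exon of Lct stood apart from the rest of that gene. This exon (chromosome 1, 128327658 to 128328318, 661 bp, bin 19) holds the start codon and makes up 10.3% of the length of the gene's bins. It had no read in any of the 7 libraries, that is 0 of 3885 exon-bin reads of the gene, which allows a share of up to 0.0772%. In the dentate gyrus alone it had 0 of 2440 reads, which allows up to 0.123%. The second exon, of 80 bp, had 63 reads in the dentate gyrus, or 788 per kilobase, and 1 to 5 reads in each Ammon's horn library. The GC content of the unread exon was 51.4%, within the range of the gene's other exons, 45.2% to 58.8%. The background was limited to genes not joined with another record, whose record version and number of bins are the same in GENCODE release M21. Among 171 such genes whose first bin has at least 300 bp and whose exons have at least 1000 reads in the dentate gyrus, 5 (2.92%) had no read in the first bin. Genes with a revised record are not covered by this share. The Lct promoter printed above ends inside this exon. Bin 7, the other unread bin of Lct, belongs to 1 of the 2 annotated transcripts and not to the full-length one. Dsp also had few reads at its 5' end. Bins 1 and 2 of Dsp had 3 reads each of 3985 in the dentate gyrus and 0 in every Ammon's horn library. The 5' end of Dsp differs between the annotations, so these 2 bins are not placed exactly. An opposite-strand gene, Gm10129 (chromosome 13, 38151433 to 38151792), overlaps this end of Dsp and had 70 reads in the dentate gyrus. Reads of the 2 genes may not be fully separated, so Dsp is not a clean parallel to Lct.

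**Figure D5:**
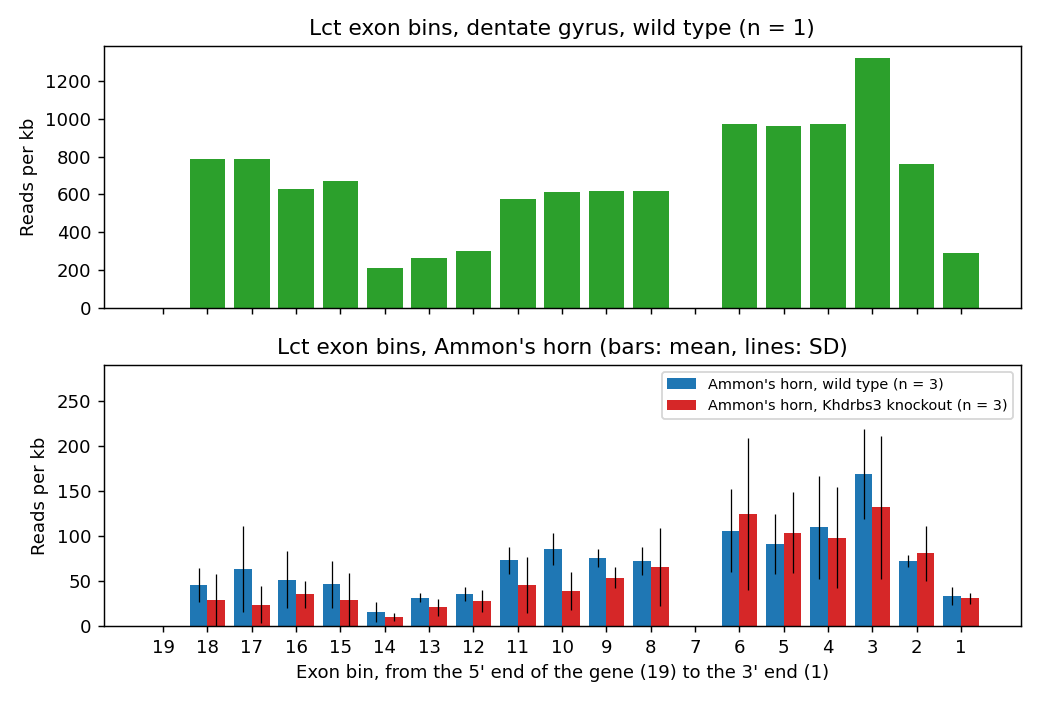
Reads per kilobase, not scaled for library depth, in the 19 exon bins of Lct from the 5' end (bin 19) to the 3' end (bin 1); the top panel is the dentate gyrus library, and the lower panel gives the mean and SD of 3 wild-type and 3 knockout Ammon's horn libraries on its own scale. Bins 19 and 7 are empty in all libraries, whereas bin 18, the second exon, reaches 788 reads per kilobase in the dentate gyrus.

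Along Lct the read density was uneven in both regions. In the dentate gyrus the long exons of bins 12, 13 and 14 (1557, 646 and 721 bp) had 298, 263 and 209 reads per kilobase. Bins 3 to 6 near the 3' end (81 to 143 bp) had 963 to 1321. The short bins 15 to 18 near the 5' end (79 to 103 bp) had 631 to 788, and the 581 bp bin 1 at the 3' end had 287. The unevenness thus went with bin length as well as position, and the 2 were not separated. Bin 14, which by the rule had the largest difference in share, held 6.19% of reads in the dentate gyrus (interval 5.27 to 7.22%) and 3.29%, 2.48% and 6.69% in wild-type Ammon's horn. These wild-type shares come from 7, 7 and 21 reads, and the dentate gyrus value lay within their range.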

How the data were processed

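Per the submitters' processing notes, the genome was mm10 and the tools were TopHat2 2.0.8b, DESeq2 1.0.19, Trim Galore 0.3.5 and bedtools 2.17.0, with no role stated. The authors deposited raw, unnormalised counts in 2 forms: 1 table of counts per gene record over the whole gene, and 1 file per library of counts per DEXSeq exon bin. For gene counts, edgeR 4.0.16 under R 4.3.3 was used (TMM, edgeR's low-count filter, quasi-likelihood F test, Benjamini-Hochberg adjustment over all genes tested). The knockout fit took the 6 libraries of Ammon's horn. For the dentate gyrus, the fit took all 7 in 3 groups, and its 1 library was assumed to vary like the others; calls there also needed a 2-fold change. Exon use was tested with diffSpliceDGE on bins that reached 10 reads in 3 or more libraries. DESeq2 1.42.0 and limma 3.58.1 served as alternatives. All 8 genes passed the low-count filter in both fits. Bins were placed with GENCODE release M21 models on the same build. Those of Glis3, which join both of its records, could not be placed, and the Dsp bins matched in number but not at the 5' end. Scripts were tested on simulated counts. The 8 genes and all lists were chosen with earlier results of these data known. Named were the 8 genes, up to 4 called genes per list with a mean of at least 5 CPM over the wild-type libraries, every list gene called in the knockout, the 5 genes of most similar profile and, per gene, the exon bin with the largest difference in share among bins with at least 100 reads. Zero counts are given the limit that 3 counts would set, and limits and intervals cover counting error only. Both take each bin count as a separate read.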

Additional observations from a re-analysis of the deposited data

How the results depend on the processing

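None of the 8 genes and none of their exon bins was called in the knockout under any alternative run. No paired analysis was possible because the labels carry no replicate numbers shared between the groups. Over all genes the knockout calls, 17 in all with 15 higher and 2 lower, depended on the tool: DESeq2 called 119 (79 higher, 40 lower), limma-voom 10 (9 and 1), and sums of exon bins 8 (5 higher). Leaving out 1 library at a time gave 11 to 55 calls, 10 to 53 higher and 1 to 8 lower, with 55 reached without knockout replicate 2. Exon-bin calls ranged from 5 to 8 in the same way, with 8 when either wild-type replicate 2 or knockout replicate 3 was left out. The cause was not tested. Estimates near 0 changed sign when 1 library was left out: Dsp (from -0.17 to 0.24, and 0.13 without wild-type replicate 1, 0.06 without wild-type replicate 3), Prox1 (-0.20 to 0.077, and 0.06 without knockout replicate 1) and Plk5 (-0.012 to 0.28, and -0.0061 without knockout replicate 3). The median ratio of dentate gyrus over wild-type Ammon's horn was 8.58 from exon bins, and 7.08 to 7.97 when 1 wild-type library was left out. With shares taken only over bins with at least 100 reads, the dentate gyrus share was 42.9% for Dsp bin 28 (38.8% over all bins), 14.4% for Plk5 bin 23 (11.4%) and 15.5% for Glis3 bin 4 (9.58%). Depth limits the exon results of Dsp, Glis3 and Plk5 in Ammon's horn.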
